A study of Mus musculus with 6 samples.

Results

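The genes of protein folding in the endoplasmic reticulum (ER) and of the unfolded protein response were examined in sorted cells of mouse mammary tumours. The list held 38 genes, chosen by symbol, and each was read from the probe set with the highest mean over all 6 arrays among those annotated to that gene alone. All 38 were on the array and passed the filter on dim probe sets, among 15027 genes tested in all. The tumours came from 3 mice, numbered 1 to 3, of the MMTV-Wnt-1 line, in which the promoter of the mouse mammary tumour virus drives a Wnt1 transgene in the mammary gland. From each tumour, fluorescence sorting gave a population labelled tumorigenic, gated as CD24+, Thy+ and CD45-, and a population labelled nontumorigenic, described as the cells outside that gate. Both populations therefore carry the transgene, and no normal mammary gland was compared. Each population of each mouse was hybridised to 1 array, which gave 3 arrays against 3.

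Secreted and membrane proteins enter the ER through the Sec61 channel and fold there with the help of chaperones and disulfide isomerases, and proteins that fail to fold are sent back to the cytosol for degradation. When unfolded protein accumulates, the membrane sensors IRE1 (gene Ern1), PERK (gene Eif2ak3) and ATF6 signal to the nucleus through XBP1, ATF4 and ATF6 itself, and chaperone genes are transcribed more. In the mammary gland, secretory epithelial cells use this machinery to make milk proteins. The sensors act by cleavage, splicing and phosphorylation, none of which these arrays measured, so the values below are transcript levels only.

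The sort labels did not match all transcripts of the gate. Ptprc, which encodes CD45, read 10.21, 7.76 and 3.82 on the log2 scale in the labelled tumorigenic arrays of mice 1 to 3, against 2.33, 3.59 and 2.51 in the labelled nontumorigenic ones. Cd24a, of the CD24+ gate, read 11.85, 12.34 and 12.84 against 12.86, 12.84 and 12.99, and so was lower under the tumorigenic label in each mouse. Thy1, of the Thy+ gate, read 10.83, 10.51 and 9.33 against 10.25, 9.67 and 10.04, higher in mice 1 and 2 and lower in mouse 3. The mean level of 13 macrophage and myeloid markers was 5.70 to 10.41 in labelled tumorigenic arrays and 4.27 to 4.56 in labelled nontumorigenic arrays. Luminal epithelial markers (12 genes) averaged 5.97 to 7.88 in labelled tumorigenic and 9.04 to 9.26 in labelled nontumorigenic arrays, and milk genes (11 genes) 8.21 to 8.74 and 9.74 to 10.83. The 3' minus 5' signal of the Gapdh control, a measure of RNA integrity, was 3.81, 6.60 and 2.62 log2 units in the labelled tumorigenic arrays of mice 1 to 3 and 3.78, 2.41 and 3.10 in the labelled nontumorigenic ones. The 18S control at the 3' end read 7.76, 6.32 and 7.38 against 8.97, 8.52 and 8.66, with no overlap between the labels, and the part of RNA quality in the results below was not tested. All directions below are between labels.

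Many of the listed genes carry a known control sequence, the ER stress response element (ERSE), to which ATF6 binds together with NF-Y. It was searched for as CCAAT, then 9 bases of any kind, then CCACG, on both strands of RefSeq promoters (GRCm38.p6) that run from 250 bases before to 50 bases after the transcript start. Promoters were found for 32 of the 38 genes. Those of Atf6, Derl1, Hyou1, Manf, Sec11c and Sec61a1 were not analysed here. The element was present in 9 of the 32 genes (28.1%), against 37 of 27025 genes with a promoter (0.137%). There were 10 matches, since Hsp90b1 held 2, and all lay between 26 and 212 bases upstream of the start. The matches are shown as a description, and 23 of the 32 genes lacked an exact match. No mismatch was allowed, so near matches were not counted. The Pdia3 promoter, counted as lacking the element, holds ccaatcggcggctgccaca, which differs from the pattern at its last base only. That of Hspa5 also holds ccaatcagcggcctccaac, which differs at its last 2 bases. The counts therefore hold for this pattern and do not show that the other genes have no such site. The genes were listed for their part in the response in which this element is known. Its higher share among them was therefore to be foreseen and is no finding of these data, as is that of the related ERSE-II below. Each match is written with CCAAT first, on whichever strand it lay, and capitals mark the fixed letters.

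Hspa5, chr2:34772025-34772043: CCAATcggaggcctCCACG
Hsp90b1, chr10:86705533-86705551: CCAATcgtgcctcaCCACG
Hsp90b1, chr10:86705638-86705656: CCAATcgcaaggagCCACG
Calr, chr8:84847075-84847093: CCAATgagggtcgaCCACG
Canx, chr11:50325800-50325818: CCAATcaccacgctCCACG
Creld2, chr15:88819520-88819538: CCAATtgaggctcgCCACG
Dnajc3, chr14:118937827-118937845: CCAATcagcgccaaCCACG
Pdia6, chr12:17266491-17266509: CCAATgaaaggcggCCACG
Derl3, chr10:75893242-75893260: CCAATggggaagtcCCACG
Syvn1, chr19:6046532-6046550: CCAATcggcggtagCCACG

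In 6 of these matches CCAAT came first on the strand of the gene, and in 4 it came first on the opposite strand. A related element, ERSE-II (ATTGG, 1 base, CCACG), was found in Herpud1 and Dnajb11, or 2 of 32 genes (6.25%) against 12 of 27025 (0.0444%). The XBP1-type element UPRE (TGACGTGG) was found in Sec24d alone, or 1 of 32 genes (3.12%) against 193 of 27025 (0.714%). The ATF4-type element CARE, searched for only as TGATG, 1 base, AAT, was in 0 of the 32 promoters, against 293 of 27025 (1.08%), in this window. This pattern fixes the last base as T, so sites with another last base were not counted. The Asns promoter holds tgatgaaac, which differs from the pattern at that base only. Those of Chac1 and Herpud1 hold gttgcatca, which does so when read on the opposite strand. The 0 therefore holds for this pattern and does not show that ATF4-type sites are absent. ERSE, ERSE-II and the opposite strand of UPRE all contain CCACG, so matches to them can overlap. A match describes letters, not a bound site.

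The promoters of Hspa5 and Derl3 are printed whole, on the strand of the gene, as the gene of the main chaperone and as one of the 2 genes with an unadjusted p below 0.05. Capitals mark the exact match to the ERSE. The Hspa5 window lies at chr2:34771840-34772139 on the + strand and the Derl3 window at chr10:75893148-75893447 on the + strand.

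Hspa5: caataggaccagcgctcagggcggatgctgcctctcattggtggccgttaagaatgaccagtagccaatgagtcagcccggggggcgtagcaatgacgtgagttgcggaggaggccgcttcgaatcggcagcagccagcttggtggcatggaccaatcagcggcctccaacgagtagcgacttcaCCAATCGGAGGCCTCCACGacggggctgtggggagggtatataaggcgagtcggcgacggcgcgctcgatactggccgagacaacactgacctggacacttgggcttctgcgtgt
Derl3: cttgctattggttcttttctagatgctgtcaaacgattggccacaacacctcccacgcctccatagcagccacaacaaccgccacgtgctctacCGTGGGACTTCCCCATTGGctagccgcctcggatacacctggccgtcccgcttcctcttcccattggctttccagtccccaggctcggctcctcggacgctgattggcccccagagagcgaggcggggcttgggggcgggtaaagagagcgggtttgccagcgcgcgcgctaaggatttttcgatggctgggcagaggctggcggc

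As a whole, the ER and unfolded protein response genes had small differences between the labels. The median log2 difference, labelled tumorigenic minus labelled nontumorigenic, was 0.082 over the 38 genes, against 0.0051 over all genes tested. In mice 1, 2 and 3 the median of the 38 was 0.14, 0.095 and -0.044. Of the 38 genes 15 had a negative difference (39.5%), as did 49.3% of all genes. The extremes were -0.70 for Derl3 and 0.49 for Atf6, and 36 of the 38 differed by less than 0.5 log2 units in size (94.7%), against 77.1% of all genes. The 38 were also brighter, with a median level of 8.30 against 6.26 for all genes. Among 121 other genes of the pathway, described below, the median level was 8.40 and 84.3% differed by less than 0.5.

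No listed gene passed the adjusted threshold. By limma with Benjamini-Hochberg adjustment over all genes, 0 of 38 had an adjusted p below 0.05 in either direction, and 0% of all genes did (0 of 15027). The smallest adjusted p among the 38 was 0.523, for Xbp1. At an unadjusted p below 0.05, 2 of the 38 were lower under the tumorigenic label, Xbp1 and Derl3 (5.26%, against 3.27% of all genes), and 0 were higher (against 5.23%), so that 2 were called in either direction, against 8.5% of all genes. With the mouse as a block, 1 was lower, Derl3 (2.63%, against 3.78% of all genes), and 0 were higher (against 5.77%). The arrays of the labels did not overlap in 1 gene on the higher side, Sec61b (6.9% of all genes), and in 2 on the lower side, Xbp1 and Hyou1 (5.59% of all genes). The difference was positive in all 3 mice for 4 genes (10.5%, against 15.9% of all genes) and negative in all 3 for 4 genes (10.5%, against 14.3%). These shares lie near or below those of all genes. No exact permutation test was run, because 3 values against 3 allow no p below 0.1.

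The intervals show how large a difference the arrays leave room for. The unadjusted 95% interval of the difference lay within a 2-fold change in both directions for 30 of the 38 genes (78.9%), against 56.2% of all genes and 71.1% of the 121 other pathway genes. The 8 listed genes whose interval reached further were Xbp1, Derl3, Eif2ak3, Atf6, Herpud1, Sec24d, Asns and Trib3. The median standard error (SE) was 0.205 log2 units for the 38 genes and 0.260 for all genes.

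**Figure D1:**
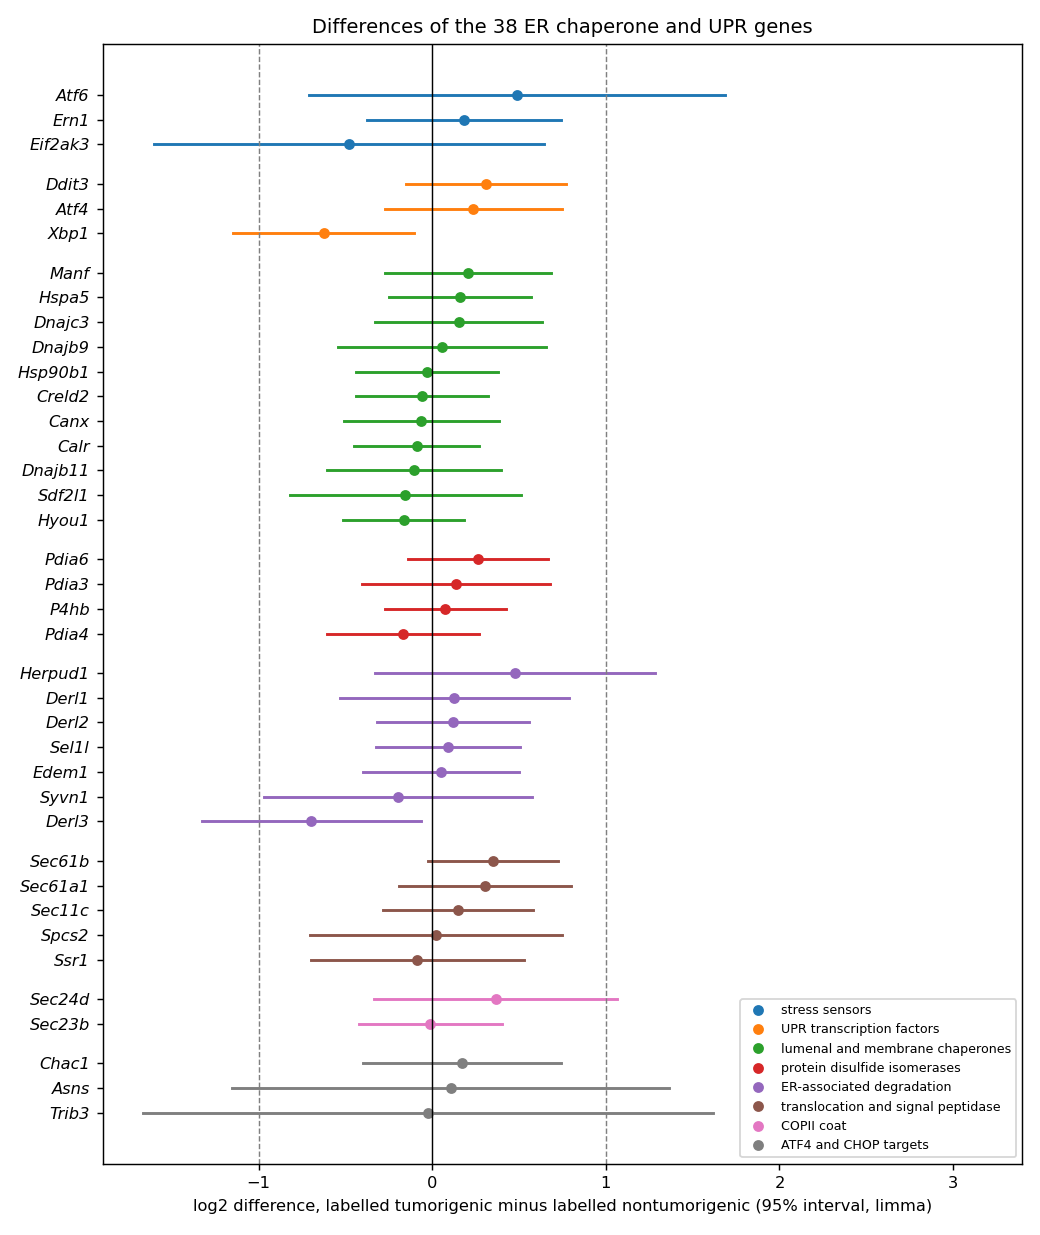
Log2 difference of each of the 38 genes, labelled tumorigenic minus labelled nontumorigenic (horizontal axis, points) with the limma 95% interval (lines), grouped and coloured by role. Dashed lines mark a 2-fold change. The intervals of Xbp1 and Derl3 lie to the left of 0, and those of Trib3, Atf6, Eif2ak3 and Asns are the widest.

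Among the sensors, none separated the labels. Ern1, the gene of the kinase and ribonuclease IRE1 that splices Xbp1 mRNA, read 7.37, 7.04 and 7.06 in labelled tumorigenic arrays of mice 1 to 3, against 7.37, 6.83 and 6.71 in labelled nontumorigenic arrays. The groups overlapped, with a difference of 0.18 (SE 0.23; limma adjusted p = 0.846). Eif2ak3, the gene of the kinase PERK that phosphorylates eIF2α, read 5.48, 5.60 and 6.03 against 6.97, 5.20 and 6.37. The labelled nontumorigenic arrays of Eif2ak3 spread over a wider range, and the difference was -0.48 (SE 0.46; limma adjusted p = 0.798).

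Atf6, the gene of the membrane-bound factor that is cleaved in the Golgi, read 8.05, 7.78 and 6.47 in labelled tumorigenic arrays and 6.40, 6.92 and 7.52 in labelled nontumorigenic arrays. The sign differed between mice: 1.65 and 0.86 in mice 1 and 2, and -1.05 in mouse 3. Its difference was 0.49 (SE 0.49; limma adjusted p = 0.808), and it was 0.97 without the labelled tumorigenic array of mouse 3 and 0.18 without that of mouse 1. Ptprc was high in the same arrays of mice 1 and 2 (10.21 and 7.76) and lower in that of mouse 3 (3.82), and its part in the Atf6 values was not tested. The other probe sets of Atf6 gave 0.48 and 0.32.

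Of the transcription factors, Xbp1 was the one that stood lower. XBP1 drives genes of ER folding, transport and degradation in secretory cells. Xbp1 read 8.53, 9.05 and 8.62 in labelled tumorigenic arrays of mice 1 to 3, against 9.57, 9.13 and 9.39 in labelled nontumorigenic arrays. Every labelled tumorigenic array was below every labelled nontumorigenic one, with the smallest gap in mouse 2. Labelled tumorigenic arrays averaged 8.74 ± 0.28 and labelled nontumorigenic arrays 9.36 ± 0.22 (SD, n = 3 each). Xbp1 thus differed by -0.63 log2 units (SE 0.21), a 1.54-fold lower level, with a 95% interval from -1.15 to -0.11. Its limma adjusted p was 0.523 and its unadjusted p 0.0257, or 0.0670 with the mouse as a block.

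Xbp1 has 4 probe sets on the array, and all 4 gave the same picture. Their log2 differences were -0.63, -0.69, -0.63 and -0.77, and on each the labels did not overlap. The probe sets share the RNA of the same arrays, so they are repeat readings and not replicates. In a limma fit over 33778 probe sets the smallest adjusted p of the 4 was 0.480. The files do not say which splice form of Xbp1 a probe set reads.

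**Figure D2:**
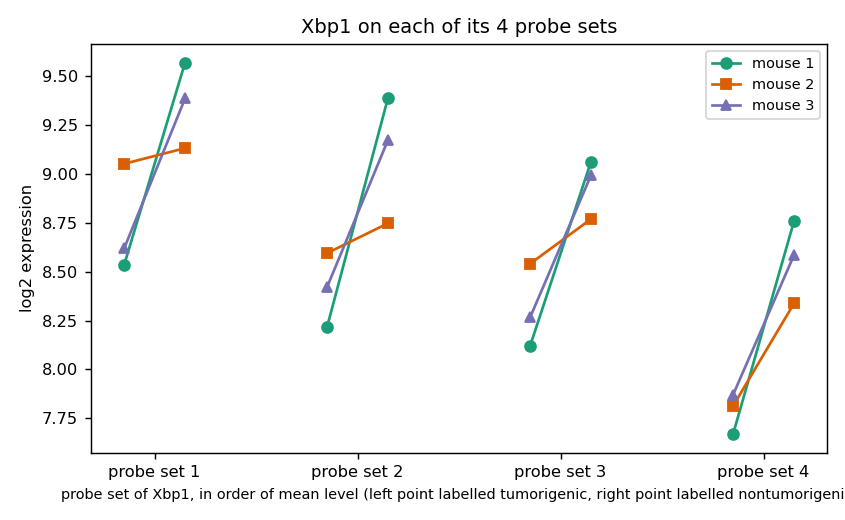
Log2 expression of Xbp1 (vertical axis) on its 4 probe sets, with the labelled tumorigenic array on the left of each pair and the labelled nontumorigenic array on the right, joined by mouse. The line of mouse 2 is the flattest on each probe set, at -0.080 on the probe set with the highest mean and -0.52 on the dimmest.

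On their brightest probe sets, Atf4 and Ddit3 had positive differences in each mouse, without passing. Atf4, the factor translated when eIF2α is phosphorylated, read 9.33, 9.78 and 9.83 against 9.20, 9.43 and 9.60. Its difference was 0.24 (SE 0.21; limma adjusted p = 0.783), and the ranges overlapped. A second bright probe set of Atf4 gave -0.15, 0.78 and -0.27 in mice 1 to 3, and a dim one gave -0.28 on average and was negative in all 3. Ddit3, the gene of CHOP, which promotes death under prolonged stress, read 8.22, 8.59 and 8.21 against 7.93, 8.24 and 7.92. The differences of Ddit3 were close to each other, at 0.29, 0.35 and 0.29 in mice 1 to 3, with a mean of 0.31 (SE 0.19; limma adjusted p = 0.695). A dimmer probe set of Ddit3 had the opposite sign, at -0.48, so the direction depends on the probe set for both genes.

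The 3 targets of ATF4 and CHOP had differences of opposite sign between mice. Chac1, a γ-glutamylcyclotransferase that degrades glutathione, read 3.46, 3.81 and 3.67 in labelled tumorigenic arrays and 3.26, 3.26 and 3.90 in labelled nontumorigenic arrays. The levels of Chac1 are low, and the difference was 0.17 (SE 0.23; limma adjusted p = 0.860). Trib3, a pseudokinase induced by CHOP, was singled out after its values were seen for its spread.

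Trib3 read 4.91, 7.17 and 7.30 in labelled tumorigenic arrays of mice 1 to 3, against 6.04, 6.51 and 6.91 in labelled nontumorigenic arrays. The low value lay in the array of mouse 1, and the SD was 1.35 in labelled tumorigenic and 0.43 in labelled nontumorigenic arrays (n = 3 each). Its difference was -0.025 (SE 0.67; limma adjusted p = 0.995), or 0.75 without that array. Asns, asparagine synthetase, had differences of -1.09, 1.18 and 0.23 in mice 1 to 3, so its mean of 0.11 (SE 0.52) hides opposite signs. The second probe sets of Trib3 and Asns gave 0.0041 and 0.12.

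The chaperones had small differences on their brightest probe sets. There, all 11 had intervals within a 2-fold change, 4 had positive and 7 negative differences, and the values ran from -0.17 to 0.21. Hspa5, the gene of BiP, which holds the sensors inactive and binds unfolded chains, read 11.95, 11.91 and 11.60 in labelled tumorigenic arrays of mice 1 to 3, against 11.76, 11.58 and 11.65 in labelled nontumorigenic arrays. The groups overlapped, and the difference was 0.16 (SE 0.17; limma adjusted p = 0.818), with a 95% interval from -0.25 to 0.57. The other probe sets of Hspa5 gave 0.19 and 0.12.

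Hyou1, a large chaperone that exchanges the nucleotide of BiP, read 9.63, 9.44 and 9.53 against 9.70, 9.67 and 9.73. Its arrays did not overlap between labels, but the difference was only -0.17 (SE 0.14; limma adjusted p = 0.780), or a 1.12-fold lower level. The dimmer probe sets of Hyou1 gave -0.28 and -0.67, and on both the labels overlapped. The first of them was positive in mouse 1, at 1.61. Of the lectin chaperones of glycoproteins, Calr (calreticulin) had a difference of -0.089 and Canx (calnexin) of -0.063. The dimmer probe sets of Canx gave 0.58 and 0.48. On the first of these the labels did not overlap, with 0.023, 0.88 and 0.84 in mice 1 to 3, and on the second they overlapped. Hsp90b1, the HSP90 of the ER lumen, had -0.031, with 95% bounds of -0.44 and 0.38.

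The BiP cofactors of the DnaJ family had differences of 0.15 for Dnajc3, 0.054 for Dnajb9 and -0.10 for Dnajb11. The secreted stress proteins Manf and Creld2 had 0.21 and -0.060, and Sdf2l1, a component of BiP complexes, had -0.16. Creld2 was lower in all 3 mice but by no more than 0.12. The largest adjusted p of the group was 0.971 and the smallest 0.780.

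**Figure D3:**
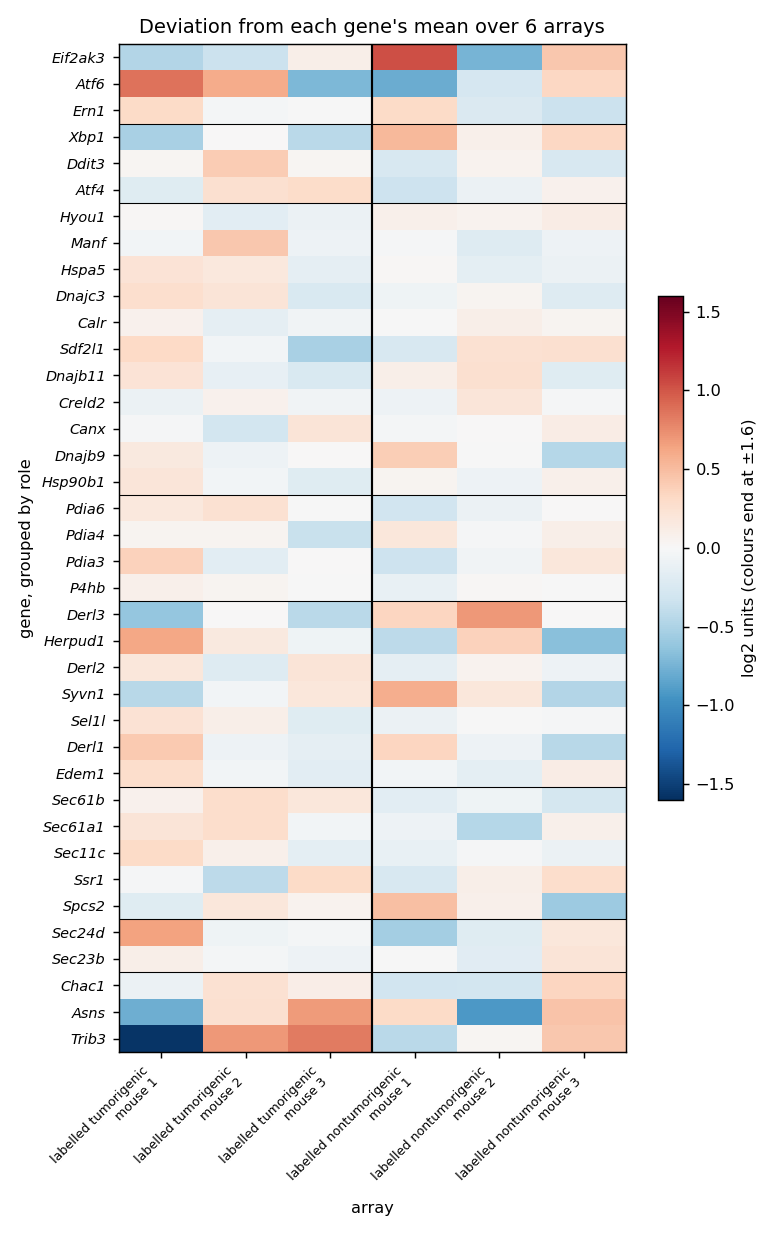
Deviation of each gene (rows, grouped by role) from its own mean over the 6 arrays, in log2 units, with the 3 labelled tumorigenic arrays to the left of the 3 labelled nontumorigenic arrays (columns). The rows of chaperones and disulfide isomerases are pale, while Trib3, Asns, Eif2ak3 and Atf6 vary between arrays of the same label.

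The protein disulfide isomerases form and rearrange disulfide bonds in the lumen. On their brightest probe sets, all 4 had intervals within a 2-fold change. Pdia6 read 7.95, 8.02 and 7.78 in labelled tumorigenic arrays of mice 1 to 3, against 7.48, 7.68 and 7.79 in labelled nontumorigenic arrays. Its highest labelled nontumorigenic array lay above its lowest labelled tumorigenic one, and the difference was 0.26 (SE 0.17; limma adjusted p = 0.705). Pdia3, which works with calnexin and calreticulin, had 0.14, P4hb 0.075 and Pdia4 -0.17. Mouse 1 gave the highest difference of Pdia3, at 0.70, against -0.12 and -0.17 in mice 2 and 3. A dimmer probe set of Pdia3 gave 0.94, with 2.40, -0.74 and 1.14 in mice 1 to 3.

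Among 7 genes of ER-associated degradation, 5 had positive and 2 negative differences. Derl3 encodes a derlin, one of the membrane proteins through which misfolded chains leave the ER, and it is expressed mainly in secretory tissues. Derl3 read 4.51, 5.13 and 4.69 in labelled tumorigenic arrays of mice 1 to 3, against 5.47, 5.82 and 5.13 in labelled nontumorigenic arrays. It was lower in each mouse, with differences of -0.96, -0.70 and -0.43, and the groups met at 5.13. Labelled tumorigenic arrays averaged 4.78 ± 0.32 and labelled nontumorigenic arrays 5.47 ± 0.35 (SD, n = 3 each). Derl3 thus differed by -0.70 log2 units (SE 0.26), a 1.62-fold lower level. The limma adjusted p was 0.546, the unadjusted p 0.0350, and 0.0219 with the mouse as a block. Only 1 probe set reads Derl3, and its level lies below the median level of all genes tested (6.26).

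The other derlins did not share this pattern: Derl1 had a difference of 0.13 and Derl2 of 0.12. Herpud1, a membrane scaffold of the degradation complex, was singled out after its values were seen. It read 8.07, 7.61 and 7.39 in labelled tumorigenic arrays of mice 1 to 3, against 7.03, 7.82 and 6.78 in labelled nontumorigenic arrays. Mouse 2 had the opposite sign, and the difference was 0.48 (SE 0.33; limma adjusted p = 0.727).

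The ubiquitin ligase Syvn1 (HRD1) and its partner Sel1l had differences of -0.20 and 0.088, and Edem1, which hands mannose-trimmed glycoproteins to degradation, had 0.051. Syvn1 had opposite signs in mice 1 and 3, at -1.02 and 0.65, and a second probe set gave 0.0078. The adjusted p of these degradation genes lay between 0.546 and 0.955.

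Of the 5 channel and signal peptidase genes, 4 had positive differences and none passed, and 11 of 26 other genes of translocation were positive. Sec61b, the β subunit of the channel, read 9.13, 9.34 and 9.24 in labelled tumorigenic arrays of mice 1 to 3, against 8.89, 8.998 and 8.78 in labelled nontumorigenic arrays. All labelled tumorigenic arrays were above all labelled nontumorigenic ones, by a small margin. Labelled tumorigenic arrays averaged 9.24 ± 0.11 and labelled nontumorigenic arrays 8.89 ± 0.11 (SD, n = 3 each). Sec61b thus differed by 0.35 log2 units (SE 0.15), a 1.27-fold higher level (limma adjusted p = 0.608, unadjusted p = 0.0626).

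The channel's α subunit Sec61a1 had a difference of 0.30, with 0.29, 0.23, -0.081 and 0.053 on its other probe sets past the filter. Sec11c and Spcs2, of the signal peptidase, had 0.15 and 0.020, and Ssr1, of the translocon-associated complex, had -0.086. In the coat of vesicles that leave the ER, Sec24d, a cargo adaptor, read 8.02, 7.30 and 7.33 against 6.83, 7.18 and 7.55. Mouse 1 alone carried the difference of Sec24d, at 1.19 against 0.12 and -0.22 in mice 2 and 3, and its mean was 0.37 (SE 0.29; limma adjusted p = 0.762). Sec23b, of the inner coat, had -0.011.

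**Figure D4:**
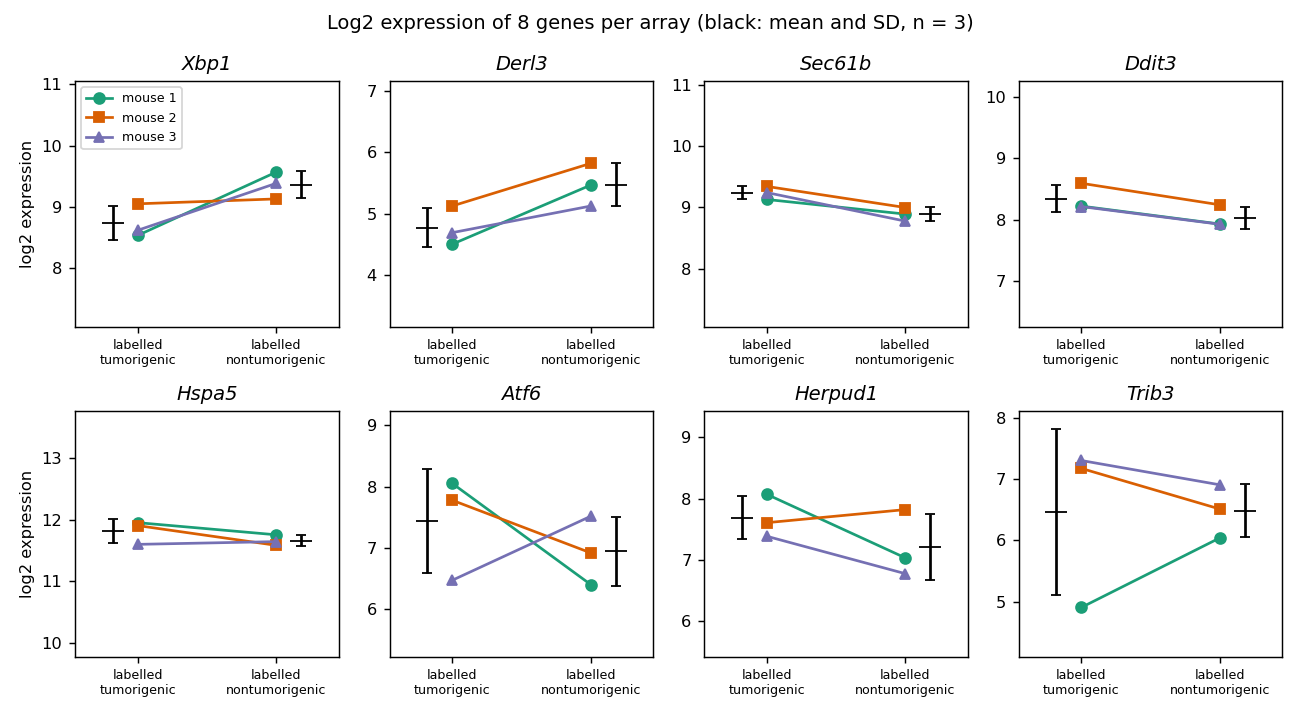
Log2 expression (vertical axis, each panel spanning 4 log2 units) of 8 genes in each array, labelled tumorigenic on the left and labelled nontumorigenic on the right, joined by mouse, with the mean and SD in black. Xbp1 and Derl3 are lower under the tumorigenic label in all 3 mice, Sec61b and Ddit3 are higher in all 3, and Atf6 and Trib3 cross between mice.

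The genes with an ERSE did not move as a block. The 9 genes that carried it had a median difference of -0.060, with 3 positive, and ranged from -0.70 for Derl3 to 0.26 for Pdia6. The 23 genes with a promoter that lacked an exact match had a median of 0.075, with 15 positive, and near matches among them were not counted. By mouse, the median of the 9 was 0.076, -0.12 and -0.044. Over all genes tested, 17 had the element, with a median of 0.013.

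The wider pathway was described by a second list of 130 symbols, which includes 3 pairs of older and newer names of the same gene, and 121 genes of it were tested. By limma 0 passed the adjusted threshold, and at an unadjusted p below 0.05 there were 7 higher (5.79%, against 5.23% of all genes) and 3 lower (2.48%, against 3.27%). The median difference was 0.066. The genes named next have the lowest p in each direction.

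On the lower side stood Bhlha15 (MIST1), a factor of secretory cells that is a target of XBP1 in mice. It averaged 4.45 ± 0.20 in labelled tumorigenic and 5.89 ± 0.52 in labelled nontumorigenic arrays (SD, n = 3 each). Bhlha15 thus differed by -1.44 log2 units (SE 0.29; limma adjusted p = 0.312), or -1.32, -2.15 and -0.86 in mice 1 to 3. Its second probe set was dim and gave -0.048. Fkbp2, a prolyl isomerase of the ER, had a difference of -1.24 (SE 0.30) and Psat1, an enzyme of serine synthesis under ATF4, one of -0.82 (SE 0.25). Both were lower in all 3 mice, with limma adjusted p values of 0.426 and 0.489.

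On the higher side, Kdelr3, a receptor that returns escaped chaperones from the Golgi, had a difference of 0.98 (SE 0.26; limma adjusted p = 0.449), or 1.31, 1.08 and 0.55 in mice 1 to 3. Tmed10, of cargo transport between ER and Golgi, had 0.66 (SE 0.20), and Man1b1, a mannosidase of ER-associated degradation, had 0.75 (SE 0.22). Tram2, a translocation-associated membrane protein, had 0.63 (SE 0.16), with 0.070 on a dimmer probe set. The limma adjusted p of these 4 lay between 0.443 and 0.495.

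Markers of some other cell types differed by more than the ER genes did. The median size of the difference was 0.154 log2 units for the 38 genes, against 4.13 for myeloid, 1.75 for milk and 1.70 for luminal markers. For 4 adipocyte markers, all with positive differences, it was 1.90. It was 1.47 for endothelial, 1.12 for T and NK cell and 0.542 for plasma cell markers. Sizes were 0.357 for basal, 0.308 for proliferation and 0.161 for pericyte markers, but 0.119 for 8 fibroblast and 0.108 for 4 B cell markers. The fibroblast medians were 0.94, 0.48 and -0.94 in mice 1 to 3, so their small size over all mice hides opposite signs. The B cell markers lay near the dim limit, where differences are compressed. All 12 luminal markers and all 11 milk markers had negative differences, with medians of -1.70 and -1.75, and 12 of 13 myeloid markers had positive ones, with a median of 4.13. In the labelled nontumorigenic arrays the mean of 1 myeloid marker, Adgre1, was below the dim limit of 2.98 (2.93). So were the means of Ptprc (2.81) and of the adipocyte marker Adipoq (2.55). Between the labels, Xbp1 and Derl3 were lower where luminal and milk markers were lower. In mice 1 to 3 the medians were -3.10, -1.29 and -1.57 for luminal and -2.26, -2.13 and -0.83 for milk markers. The differences were -1.03, -0.080 and -0.77 for Xbp1, and -0.96, -0.70 and -0.43 for Derl3. In mouse 2 the milk markers were thus much lower while Xbp1 hardly differed. The part of cell makeup in the values of Xbp1 and Derl3 was not tested. In bulk samples, fewer cells of a type and less RNA per cell cannot be told apart. Of plasma cell markers, 3 of 6 were positive, with a mean level of 6.76 to 7.49 in labelled tumorigenic and 6.44 to 6.62 in labelled nontumorigenic arrays. Irf4, Prdm1 and Tent5c were higher, while Sdc1, Pou2af1 and the dim Mzb1 (3.25 against 3.47) were lower. Of T and NK cell markers, 8 of 9 were positive, with 9, 5 and 4 positive in mice 1 to 3. The labelled nontumorigenic means of 2 of the 9, Il7r (2.73) and Gzmb (2.79), were below the dim limit. Their mean level was 7.18 in the labelled tumorigenic array of mouse 1 and 3.41 to 4.27 in the other arrays. B cell markers (4 genes) averaged 3.12 to 3.38 in labelled tumorigenic and 3.11 to 3.19 in labelled nontumorigenic arrays. All 10 endothelial markers had positive differences, with a mean level of 7.12 to 7.94 in labelled tumorigenic and 5.73 to 6.30 in labelled nontumorigenic arrays. Without the labelled tumorigenic array of mouse 1, which had the highest Ptprc, the Xbp1 difference was -0.53 and the Derl3 difference -0.56. Then 0 of the 38 genes kept an unadjusted p below 0.05. The same count was left without the labelled nontumorigenic array of mouse 1, where Ptprc read 2.33. Neither Xbp1 nor Derl3 was left without the labelled tumorigenic array of mouse 3, where Ptprc read 3.82. The part of Ptprc in these losses was not tested.

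**Figure D5:**
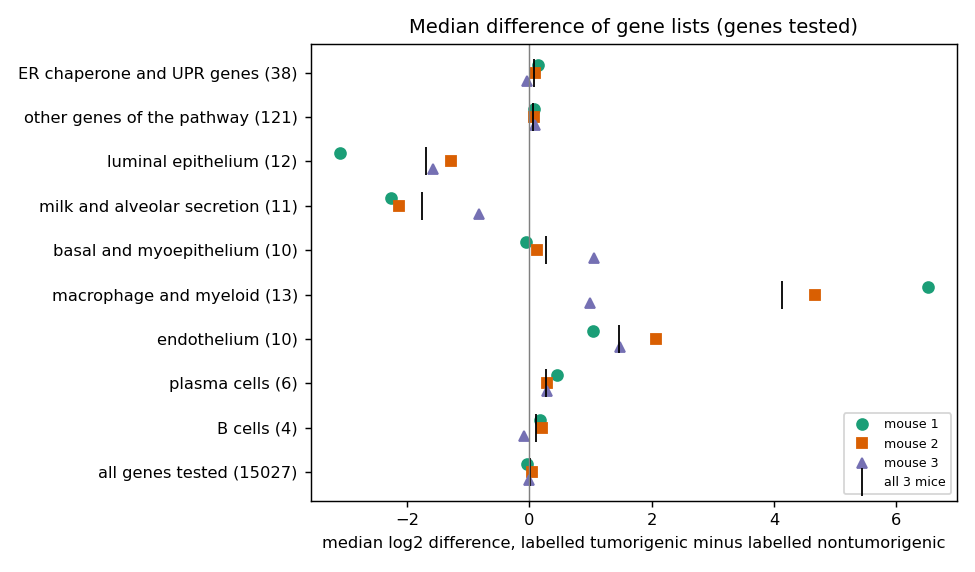
Median log2 difference, labelled tumorigenic minus labelled nontumorigenic (horizontal axis), of each gene list (rows, number of genes tested in brackets) in mice 1 to 3 (symbols) and over the 3 mice (vertical ticks). The ER chaperone and unfolded protein response genes lie between -0.044 and 0.14 in every mouse, while myeloid, luminal and milk markers lie far from 0.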

How the data were processed

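The deposited table holds log2 expression values per probe set of 6 Affymetrix arrays, which the authors made with RMA, per the submitters' processing notes. RMA equalises the arrays, which would hide a shift of most transcripts in one direction. The RMA version is not given in the sources used here. The log2 scale was read from the values (1.59 to 13.87, array medians 4.36 to 4.40). Total RNA was amplified and labelled as biotin-cRNA, per the labels' protocols. Arrays have no depth, and their number limits the precision.

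Of 45101 probe sets, 34945 had 1 gene symbol in the platform annotation. The 25% with the lowest mean were left out (limit 2.98), and 1 probe set stood for each of 15027 genes. Limma 3.58.1 (R 4.3.3; lmFit, eBayes) compared the labels with no covariate. The fit was tested on simulated data with independent noise in each array, which does not cover pairing by mouse or an outlying array. SE and intervals come from limma, p values are two-sided.

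The mice pair the arrays, since both populations come from the same animal. Deviations of same-mouse arrays correlated at 0.079, 0.14 and 0.086 across genes. The mouse as a block was an alternative.

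The 38 genes and all lists were chosen with earlier results of these data known. Arrays are shown for the sensors, the transcription factors, Hspa5, genes with an unadjusted p below 0.05 and the lowest p in each role. Of the second list, up to 4 genes per direction with the lowest p are named.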

Additional observations from a re-analysis of the deposited data

How the results depend on the processing

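Over 16 alternatives, the count of listed genes past the adjusted threshold was 0 in each, as was that of the wider pathway. The settings tried were a mouse block, no filter on dim probe sets, a filter at 50%, a second quantile normalisation, centring on array medians, the mean of probe sets, a trended and robust prior, and leaving out each array or each mouse. With the mouse as a replicate block the median difference of the 38 genes was 0.082 and 15 were negative, and of the unadjusted calls among the 38 it ended that of Xbp1 (limma unadjusted value 0.0670). Over all genes, 18 passed the adjusted threshold without the labelled tumorigenic array of mouse 3, 1 with no dim filter and 1 with the mean of probe sets, against 0 as reported. Leaving out arrays or mice gave medians from 0.014 to 0.11 and 13 to 19 negative genes. Xbp1 stayed between -0.90 and -0.42 and Derl3 between -0.87 and -0.52 in all settings, with adjusted p of 0.373 to 0.958 and 0.405 to 0.958. At an unadjusted p below 0.05, neither Xbp1 nor Derl3 was left when mouse 1, mouse 3, either array of mouse 1, or the labelled tumorigenic array of mouse 3 was dropped. Derl3 was also lost with the trended and robust prior and without the labelled nontumorigenic array of mouse 2, and Xbp1 without that of mouse 3.

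Some differences turned sign, among them those of Atf6, Eif2ak3 and Sec24d, and the cause was not tested. With the mean of probe sets, the values were 0.33 for Canx, -0.082 for Ddit3, -0.040 for Sel1l, 0.037 for Ssr1 and -0.0087 for Spcs2, and quantile normalisation gave -0.014 for Spcs2. Leaving out arrays or mice turned the sign of 21 genes at least in 1 setting, with these ranges: Asns -0.43 to 0.70, Atf6 -0.093 to 1.26, Canx -0.18 to 0.066, Chac1 -0.015 to 0.39, Creld2 -0.11 to 0.020, Derl1 -0.066 to 0.33, Dnajb11 -0.24 to 0.039, Dnajb9 -0.16 to 0.26, Edem1 -0.084 to 0.22, Eif2ak3 -0.97 to 0.029, Hsp90b1 -0.14 to 0.092, Manf -0.011 to 0.32, Pdia3 -0.14 to 0.29, Sdf2l1 -0.52 to 0.15, Sec23b -0.11 to 0.13, Sec24d -0.048 to 0.66, Sel1l -0.033 to 0.22, Spcs2 -0.29 to 0.37, Ssr1 -0.26 to 0.13, Syvn1 -0.62 to 0.21, Trib3 -0.45 to 0.75. Calls at an unadjusted p below 0.05 were gained by Atf6 without mouse 3 (difference 1.26, limma adjusted p = 0.267) or its labelled tumorigenic array (0.97, 0.307), by Sec61b with no dim filter (0.35, 0.599), and by Eif2ak3 (-0.97, 0.540) and Herpud1 (0.78, 0.575) when the labelled nontumorigenic array of mouse 2 was dropped. Opposite signs between probe sets were found in 12 of the 26 genes with several probe sets. Chac1, Pdia4, Sdf2l1, Derl3 and Eif2ak3 had levels below the median of all genes (6.26), nearer to background.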

Other observations

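Among translocation, glycosylation and signal peptidase genes of the second list, 11 of 26 had positive differences, with a median of -0.064, while 16 of 21 genes of ER exit did, with a median of 0.13. Among further folding genes 20 of 28 were positive, with a median of 0.23. The shares are descriptions, and 49.3% of all genes were negative.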
